A study of Mus musculus with 74 samples.

Results

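The transcriptional step from 6 to 12 h after activation was measured in Th0, Th1, Th2, and Th1/2 cells by setting each array at 12 h against the array at 6 h of the same culture and the same experiment. This used 16 of the 74 Illumina Mouse Sentrix-6 bead arrays of the time course, 8 at 12 h and 8 at 6 h, and gave 8 pairs. All cells were naive CD4+ CD62L-high T cells sorted magnetically from spleen and lymph node of Balb/c mice of 5 to 8 weeks, and all cultures, at both times, received plate-bound anti-CD3 and soluble anti-CD28. Th0 cells were kept with blocking antibodies to IFN-γ, IL-4, and IL-12, Th1 cells with IL-12 and anti-IL-4, Th2 cells with IL-4, anti-IL-12, and anti-IFN-γ, and Th1/2 cells, labelled ThMix by the submitters, with IL-12 and IL-4 and no blocking antibody. The 8 pairs come from 2 independent experiments with 1 array per culture and time in each, so pairs of 1 experiment may share more than the fit allows for. Time after activation and time in culture cannot be told apart in this design.

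Values are log2 intensities, on which a difference of 1 is a 2-fold change, and each change is 12 h minus 6 h. A gene is said to have risen or fallen when limma's paired test gave an adjusted p (Benjamini-Hochberg over 12661 genes) below 0.05. Signals through the T cell receptor and CD28 first switch on immediate early genes, many of which encode transcription factors of the AP-1, EGR, and NR4A families and are soon held down again by their own feedback. Within the following hours a naive T cell grows, leaves quiescence, and loads the machinery with which it will copy its DNA, while E2F factors released from the retinoblastoma protein turn on the replication genes. Cytokines made by the cells themselves, among them IL-2, IFN-γ, and interferons, add further programs.

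Over the step, 2771 of 12661 genes rose (21.9%) and 2274 fell (18.0%), with a median change of 0.00 over all genes. Changes of 2-fold or more were found for 84 genes that rose (0.663%) and 99 that fell (0.782%), and these are the percentages against which the counts below should be read. Of the 84, 82 were higher in all 8 pairs, the exceptions being *Gins1* and *Mcm3*, and of the 99, 98 were lower in all 8 pairs, the exception being *Frmd7*. The values of the 12 h arrays did not overlap those of the 6 h arrays for 77 of the 84 and 80 of the 99, against 1763 of all 12661 genes. At the edge of the 2-fold threshold lay *Pcca* with a change of 1.00 and *Vsir* with −1.0. The same changes with a threshold of 1.5-fold numbered 526 higher and 450 lower.

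The array of Th1/2 cells at 12 h in experiment 1 stood apart. The change of its pair departed at least 2-fold from the mean of the other 7 pairs for 460 genes, against 3 to 37 genes in the other pairs. Left out together with its 6 h partner, 72 genes rose and 104 fell at least 2-fold, of which 68 and 91 were among those called from all 8 pairs. Array medians lay between 107 and 111 on the linear scale. The 8 CD4 T cell markers of the table had a mean log2 level of 11.4 to 11.8 on the 12 h arrays and of 11.5 to 11.9 on the 6 h arrays. *Cd3e*, a chain of the T cell receptor complex, had a mean of 13.80 at 12 h and 13.84 at 6 h. Of the 8 markers, *Cd2* fell by 0.67, *Cd4* rose by 0.23, and 6 did not pass. Of the other cell types, B cell markers had 0 higher and 2 lower of 5, and erythroid markers 0 higher and 2 lower of 3. The NK cell, monocyte, and stromal lists had 1 lower of 3 each, and the dendritic cell and mast cell lists 1 lower of 4 each. *Kit*, of the mast cell list, averaged 8.24 at 12 h and 9.67 at 6 h, a change of −1.43. *Hba-a1*, an alpha globin, averaged 9.86 at 12 h and 10.80 at 6 h, *Lyz2*, a lysozyme of myeloid cells, 6.70 at 12 h and 7.81 at 6 h, and *Cd8b1*, a CD8 chain, 11.98 at 12 h and 11.70 at 6 h, while *Cd8a* lay near background at 6.31 at 12 h and 6.41 at 6 h. Apart from *Cd8b1* and *Cd4* (0.23), the markers that passed were lower at 12 h, and their part in the results was not tested. In bulk RNA, fewer cells that express a gene and less RNA per cell cannot be told apart. The methods describe quantile normalization, which sets all arrays to a common distribution and keeps the median change over all genes small. Rises and falls are therefore relative to the other genes of an array, and a change in total RNA per cell would not show.

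**Figure D1:**
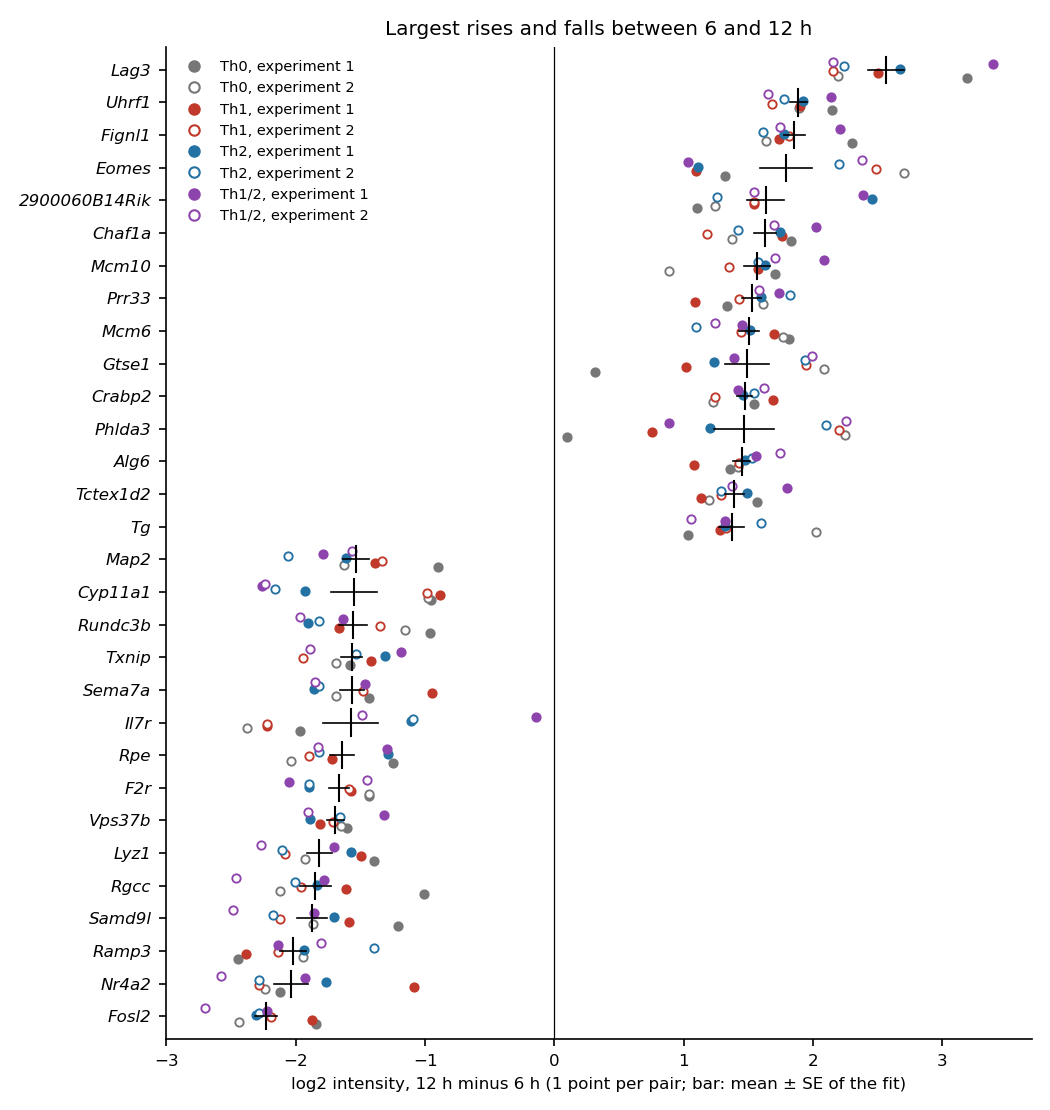
Change between 6 and 12 h (12 h minus 6 h, log2 intensity) of the 15 genes with the largest rises and the 15 with the largest falls among those with the same sign in all 8 pairs. Points are pairs, coloured by culture and filled for experiment 1, and the bar is the mean of the paired fit with its standard error. *Lag3* leads the rises at 2.56 and *Fosl2* the falls at −2.23.

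The genes of DNA replication and G1/S rose together. Of 60 genes of that list tested, 48 rose and 0 fell, with 13 rising at least 2-fold, against 21.9% and 0.663% of all genes, and the median change was 0.58, between 0.52 and 0.74 in single pairs. *Uhrf1*, which brings the maintenance methyltransferase to newly copied DNA, lay between 10.92 and 11.58 on the 12 h arrays (median 11.06) and between 9.11 and 9.44 on the 6 h arrays (median 9.33). All 12 h arrays thus lay above all 6 h arrays, and the change was 1.89 (SE 0.06, limma adjusted p = 1.61e-08), or 3.70-fold. *Fignl1*, an AAA ATPase of homologous recombination, spanned 9.34 to 10.29 at 12 h (median 9.56) and 7.60 to 8.08 at 6 h (median 7.82). Its change of 1.85 (SE 0.08) was of the same size. *Chaf1a*, the large subunit of the chromatin assembly factor that places histones behind the fork, spanned 8.13 to 9.19 at 12 h (median 8.63) and 6.83 to 7.17 at 6 h (median 6.99). It was thus near background at 6 h and clear of it on every 12 h array, with a change of 1.63 (SE 0.09).

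Within that list the helicase and its loaders were followed gene by gene. *Mcm6*, a subunit of the replicative helicase, spanned 11.71 to 12.52 at 12 h (median 12.11) and 10.27 to 11.07 at 6 h (median 10.59), a change of 1.5 (SE 0.08, adjusted p = 9.59e-08). The helicase genes did not change alike: *Mcm5* rose by 1.24, *Mcm7* by 0.99, *Mcm2* by 0.90, and *Mcm4* by 0.88. *Mcm3* rose by 1.10 (SE 0.24) and was higher in 7 of 8 pairs. In the pair that stood apart, *Mcm3* was at 7.84 at 12 h and 8.88 at 6 h, and without that pair its change was 1.41. *Mcm10*, which joins the helicase to the polymerase, spanned 8.28 to 9.38 at 12 h (median 8.94) and 7.23 to 7.47 at 6 h (median 7.31), a change of 1.56 (SE 0.10). Among loading and elongation factors, the origin recognition subunit *Orc1* rose by 1.06, the loader *Cdc6* by 0.81, the helicase cofactor *Cdc45* by 1.12, the GINS subunit *Gins2* by 1.24, the clamp loader subunit *Rfc4* by 1.28, and the ligase of Okazaki fragments *Lig1* by 1.36. *Pcna*, the sliding clamp, rose by only 0.36 (adjusted p = 0.0194). The checkpoint kinase gene *Chek1* rose by 1.03, and among the G1/S regulators *E2f1* rose by 0.72, *Cdk2* by 0.72, *Ccnd3* by 0.81, and *Ccne1* by 0.43. Not passing the test were *Ccnd2* at −0.13, *Ccnd1* at 0.05, *Cdk4* at 0.08, *Ccne2* at −0.07, *Mybl2* at −0.13, and *E2f7* at 0.01.

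The E2F recognition sequence was sought in the promoters of these genes, since E2F factors are known to drive this list. In RefSeq windows of GRCm38.p6 that run from 250 bases before to 50 bases after the annotated start, TTTCCCGC or TTTGGCGC on either strand was present in 16 of 61 windows of the replication list (26.2%, 49 of 60 genes matched), against 336 of 12919 windows of all genes tested (2.6%). Among genes that rose the share was 4.06%, among those that fell 1.74%, and among those that rose 2-fold 7.69% (6 of 78 windows). In all, 7 motifs were sought. The E-box CACGTG was present in 14 of the 78 windows of genes that rose 2-fold (17.9%). Its share was 9.13% among all genes that rose, 14.8% in the replication list, and 9.47% among all windows. A match is a description of the letters and not evidence of binding, and *E2f7*, whose window holds the motif, did not pass the test. The 5 stretches of 60 bases shown are of genes that rose, each read 5′ to 3′ along the gene's own strand, with the motif in capitals.
Mcm6, chr1:128359782-128359841, minus strand: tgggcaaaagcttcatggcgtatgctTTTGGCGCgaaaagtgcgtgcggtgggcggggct
Mcm5, chr8:75109334-75109393, plus strand: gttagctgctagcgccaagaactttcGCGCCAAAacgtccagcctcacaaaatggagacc
Mcm7, chr5:138172015-138172074, minus strand: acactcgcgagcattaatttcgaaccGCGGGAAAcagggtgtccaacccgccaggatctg
Cdc6, chr11:98907987-98908046, plus strand: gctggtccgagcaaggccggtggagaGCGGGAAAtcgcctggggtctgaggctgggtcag
Cdk2, chr10:128705158-128705217, minus strand: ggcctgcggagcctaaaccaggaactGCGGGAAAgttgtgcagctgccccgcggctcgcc

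Cell division genes were followed into the neighbouring steps. The replication list had a median change of 0.20 between 3 and 6 h, of 0.58 over the present step, and of 1.23 between 12 and 24 h. These steps last 3, 6, and 12 h and share arrays at 6 and 12 h. The mitosis list, 37 genes, had medians of −0.03, 0.23, and 2.62 over the same 3 steps. Over the present step against the 3 to 6 h step, 9 of the 60 replication genes and 3 of the 37 mitosis genes differed by 2-fold or more (limma adjusted p below 0.05), against 3.14% of all genes with a more positive and 3.17% with a more negative present step. For 33 of the 37 mitosis genes the present step differed by the same rule from the 12 to 24 h step, against 0.656% of all genes with a more positive and 2.56% with a more negative one. *Cdk1*, the kinase that drives entry into mitosis, spanned 7.72 to 8.19 at 12 h (median 7.83) and 6.85 to 7.41 at 6 h (median 7.17). It rose by 0.71 over the step and by 4.23 over the next. *Top2a* rose by 0.66 and then by 4.10, and *Mcm10*, already 1.56 higher at 12 h, rose by a further 3.81.

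Of the 37 mitosis genes, 19 rose and 4 fell over the step. *Ncapd2*, a condensin subunit, spanned 8.58 to 8.88 at 12 h (median 8.81) and 7.42 to 8.01 at 6 h (median 7.75) and rose by 1.06, the condensin gene *Ncaph* rose by 0.95, the kinetochore gene *Spc25* by 0.93, and the spindle checkpoint gene *Mad2l1* by 0.88. The 4 that fell were *Kif15*, *Plk1* (−0.24), *Prc1* (−0.24), and *Birc5* (−0.26). *Kif15*, a spindle kinesin, spanned 9.02 to 10.08 at 12 h (median 9.36) and 9.998 to 11.67 at 6 h (median 10.76), so the 2 times overlapped slightly. It fell by 1.30 (SE 0.11, adjusted p = 2.32e-06) after a change of 0.56 from 3 to 6 h and before one of 1.51 from 12 to 24 h, and its step differed from the next by −2.81. *Foxm1*, a transcription factor of the mitotic genes, had a change of −0.01.

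**Figure D2:**
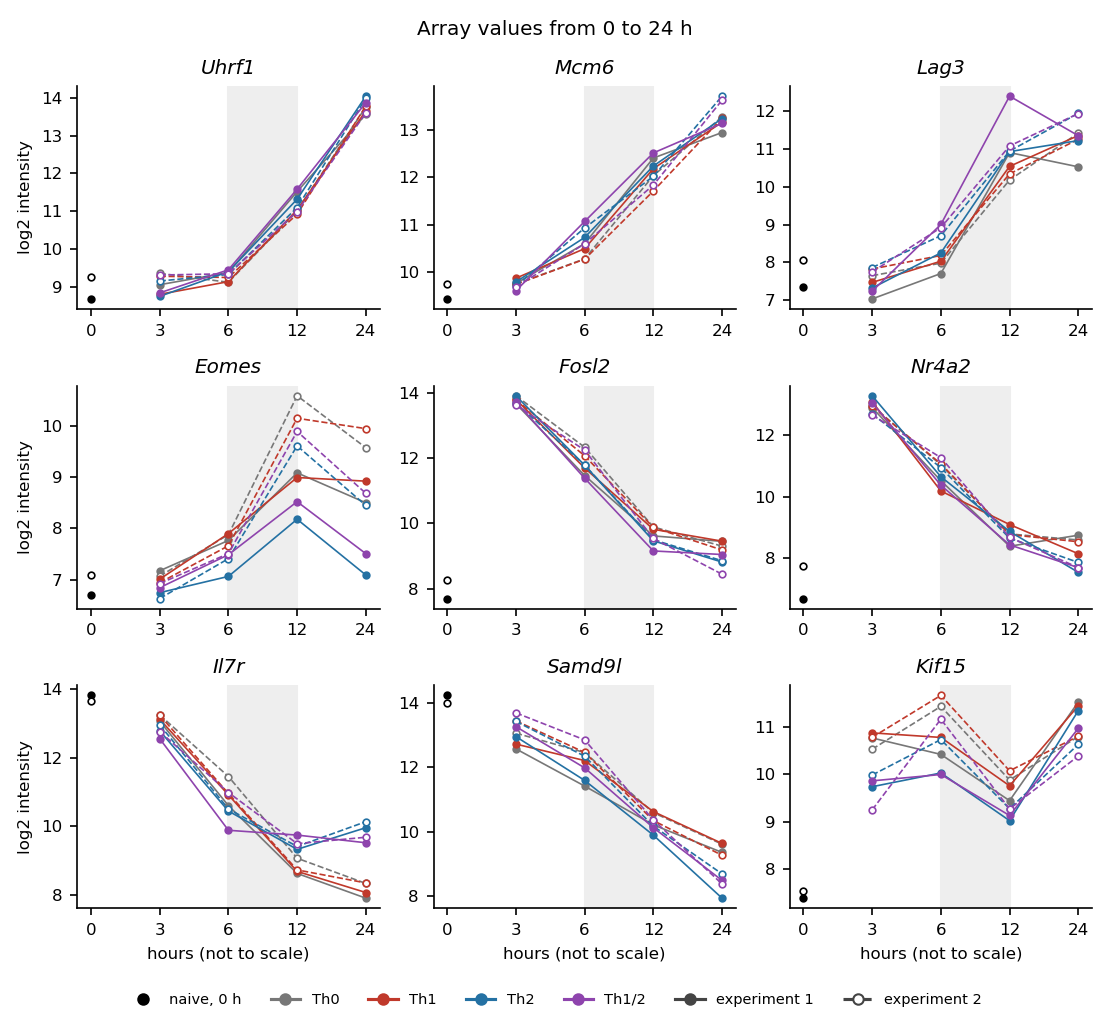
Log2 intensity of 9 genes on every array from 0 to 24 h, with the 6 to 12 h step shaded, cultures in colour, and experiment 2 dashed. *Uhrf1* and *Mcm6* go on rising to 24 h, *Eomes* is highest at 12 h, *Fosl2* and *Nr4a2* are highest at 3 h, and *Kif15* dips at 12 h.

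Of 32 genes of nucleotide and polyamine synthesis 12 rose and 6 fell, against 21.9% and 18.0% of all genes, and the median was 0.11. *Tyms*, thymidylate synthase, spanned 9.38 to 9.93 at 12 h (median 9.67) and 8.12 to 8.72 at 6 h (median 8.38), and rose by 1.24 (SE 0.06). Its probe could also measure a pseudogene, so this level is uncertain. *Rrm1*, the large subunit of ribonucleotide reductase, rose by 1.05, *Tk1*, thymidine kinase, by 0.76, and *Dut*, which removes dUTP, by 0.61. *Ctps*, CTP synthase, fell by 0.42.

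Of the 3 mitochondrial lists, import and carrier genes had 11 higher and 4 lower of 31 (median 0.10). Of 65 respiratory chain subunits 56 rose and 1 fell, with a median of 0.36 and single pairs between 0.25 and 0.49. The complex I subunit *Ndufb9* spanned 9.28 to 10.67 at 12 h (median 9.78) and 8.69 to 9.24 at 6 h (median 9.02) and rose by 0.86, *Ndufb5* rose by 0.84, the cytochrome oxidase subunit *Cox7a2* by 0.80, and the succinate dehydrogenase subunit *Sdhd* by 0.79. *Atp5a1*, of the ATP synthase, had a change of 0.93 with an opposite sign on its other probe. *Uqcrq* of complex III was the 1 that fell, by 0.70. Of 65 mitochondrial ribosomal proteins 40 rose and 2 fell (median 0.26), led by *Mrps35*, which spanned 10.93 to 11.55 at 12 h (median 11.22) and 10.11 to 10.61 at 6 h (median 10.45), with *Mrps6* (−0.50) and *Mrpl50* (−0.23) the 2 that fell. The 65 had a larger median between 3 and 6 h, 0.57, and a small one between 12 and 24 h, 0.08. Of 30 proteasome subunits 21 rose and 0 fell (median 0.26), for example *Psmd14* by 0.61 and *Psmb5* by 0.52.

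In glycolysis 8 of 24 genes rose and 2 fell. *Tpi1*, triose phosphate isomerase, spanned 12.47 to 12.76 at 12 h (median 12.58) and 11.27 to 11.82 at 6 h (median 11.51) and rose by 1.06 (SE 0.05, adjusted p = 8.39e-08). *Gapdh* rose by 0.91 and *Pfkm* by 0.64, whereas the glucose transporter *Slc2a3* fell by 0.40, and *Slc2a1* at −0.05 and *Ldha* at 0.09 did not pass. Outside the lists, *Idh2*, the mitochondrial isocitrate dehydrogenase, rose by 1.17, and 2 enzymes of haem synthesis, *Alad* and *Urod*, rose by 1.07 and 1.05. Named after their values were seen, thioredoxin *Txn1* rose by 1.17, the lipid peroxide reductase *Gpx4* by 1.16, and the selenoprotein *Selenoh* by 1.37. *Gpx4* had fallen before, with a change of −1.36 from 3 to 6 h, and the difference between the 2 steps was 2.52.

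Genes of ribosome production were mostly level or lower at 12 h. Nucleolar ribosome biogenesis genes had a median of 0.47 from 3 to 6 h, −0.09 over the present step, and −0.26 from 12 to 24 h, and of 67 genes 4 rose and 22 fell. *Pes1*, a ribosome assembly factor, spanned 10.72 to 11.16 at 12 h (median 10.85) and 11.22 to 11.52 at 6 h (median 11.33). It fell by 0.46 after a rise of 0.51 from 3 to 6 h. *Ncl*, nucleolin, rose by 0.25, and *Npm1*, nucleophosmin, had 0.12. Translation factors (5 higher, 6 lower of 33), polymerase III and tRNA genes (9 higher, 8 lower of 29), tRNA synthetases (5 higher, 7 lower of 21), and cytosolic ribosomal proteins (7 higher, 3 lower of 47) had medians between −0.05 and −0.02. Splicing factors had 16 higher and 7 lower of 49, and chaperones 10 higher and 5 lower of 37, among them the chaperonin gene *Cct5* at 0.72 and the inducible *Hspa1a* at −0.58. In cholesterol and fatty acid synthesis 6 of 27 rose and 9 fell. *Sqle*, squalene epoxidase, spanned 11.63 to 12.34 at 12 h (median 12.00) and 12.57 to 12.95 at 6 h (median 12.78). It fell by 0.75 after a rise of 0.96 from 3 to 6 h, and *Cyp51* fell by 0.73 and *Hsd17b7* by 0.86.

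*Lag3*, an inhibitory receptor that binds MHC class II, changed more than any other gene tested that rose. It spanned 10.18 to 12.39 at 12 h (median 10.91) and 7.71 to 9.003 at 6 h (median 8.22). No 12 h array overlapped the 6 h arrays, and the change was 2.56 (SE 0.14, adjusted p = 1.11e-07), or 5.91-fold, with single pairs from 2.15 to 3.39. The mean had been 7.70 in naive cells and 7.52 at 3 h, and was 11.37 at 24 h. *Eomes*, a T-box transcription factor of cytotoxic and memory cells, spanned 8.18 to 10.59 at 12 h (median 9.35) and 7.07 to 7.90 at 6 h (median 7.59) and rose by 1.79 (SE 0.20, adjusted p = 1.81e-05). Its level then changed by −0.79 from 12 to 24 h, so its step exceeded the next by 2.58. *Tnfsf4*, which encodes OX40 ligand, spanned 7.49 to 8.47 at 12 h (median 8.07) and 6.73 to 7.26 at 6 h (median 6.95), rose by 1.06, and changed by −0.78 over the next step. *Cd52*, a small surface glycoprotein of lymphocytes, rose by 1.20 and *Cd226*, an activating receptor, by 0.95.

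Most other surface receptors that changed were lower at 12 h. Of 28 costimulatory and checkpoint receptors 2 rose and 12 fell, against 18.0% of all genes that fell. *Cd274*, which encodes PD-L1, spanned 12.77 to 13.21 at 12 h (median 12.95) and 13.82 to 14.26 at 6 h (median 14.03), and fell by 1.10. *Tnfrsf9*, which encodes 4-1BB, spanned 10.56 to 11.39 at 12 h (median 11.08) and 11.44 to 12.26 at 6 h (median 11.98). It fell by 0.87 after a rise of 1.58 from 3 to 6 h, a difference of −2.45 between the steps. The early activation antigen *Cd69* fell by 0.88, *Cd86* by 0.91, *Icos* by 0.45, and *Ctla4* by 0.33. *Pdcd1* at −0.07 did not pass, nor did *Cd28* at 0.52, although *Cd28* had 0.88 (adjusted p = 8.23e-05) without the pair that stood apart. The T cell receptor and its proximal signalling list had 3 higher and 11 lower of 30. The CD3 chains were level, with *Cd3e* at −0.05, *Cd3d* at 0.01, and *Cd3g* at −0.03, while the transcription factor gene *Nfatc1* fell by 0.92 and the phosphatase gene *Ptpn22* by 0.89.

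The immediate early genes fell together. Of 35 tested 0 rose and 30 fell, 10 of them at least 2-fold, against 18.0% and 0.782% of all genes, and the median was −0.62, between −0.99 and −0.35 in single pairs. *Fosl2*, an AP-1 subunit, spanned 9.16 to 9.89 at 12 h (median 9.58) and 11.38 to 12.33 at 6 h (median 11.78). The 2 times were far apart on every array, and *Fosl2* fell by 2.23 (SE 0.09, adjusted p = 1.61e-08), so that the 6 h level was 4.70-fold that at 12 h. *Nr4a2*, an orphan nuclear receptor, spanned 8.39 to 9.09 at 12 h (median 8.72) and 10.18 to 11.26 at 6 h (median 10.79), and fell by 2.04 (SE 0.13). *Egr2*, a zinc finger factor that also restrains T cell activation, spanned 11.92 to 12.49 at 12 h (median 12.20) and 12.88 to 13.68 at 6 h (median 13.40), and fell by 1.14 (SE 0.07). Its level thus stayed high in spite of the fall, and *Egr1*, which fell by 1.03, had a change of −0.01 from 12 to 24 h. *Csrnp1* fell by 1.41, *Nfkbid*, a nuclear IκB protein, by 1.27, *Fos* by 1.11, *Nr4a3* by 1.10, *Egr3* by 0.98, and *Nr4a1* by 0.55. Feedback regulators were among those that fell: *Dusp1*, a MAP kinase phosphatase, by 1.12, and *Zfp36*, which destabilises cytokine mRNAs, by 1.04. Values that did not pass were *Jund* at 0.30 and *Nfkbia* at 0.08.

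*Myc*, the growth factor-driven transcription factor, fell by 0.62 (adjusted p = 0.0412), but the pair that stood apart read 8.80 at 12 h and 11.14 at 6 h, and without it the change was −0.37. Many of the falling genes had been switched on in the first hours. A change of 2-fold or more upward from 0 to 3 h, arrays that the present step does not use, was found for 42 of the 99 genes that fell 2-fold (42.4%), 0 of the 84 that rose, and 636 of all 12661 (5.02%). The opposite early change, 2-fold downward by 3 h, was found for 22 of the 84 (26.2%), 5 of the 99 (5.05%), and 662 of all genes (5.23%). Of the early genes outside the list, *Ramp3*, a partner protein of calcitonin-type receptors, spanned 6.68 to 7.89 at 12 h (median 7.55) and 8.57 to 10.27 at 6 h (median 9.57) after a mean of 11.57 at 3 h, and fell by 2.02.

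The cyclic AMP response element TGACGTCA was present in 4 of 40 promoter windows of the immediate early list (10%, 28 of 35 genes matched) and in 2.78% of all windows. The NF-κB sequences GGACTTTCC or GGAATTTCC, on either strand, were present in 5 of the 40 (12.5%) and in 0.774% of all. Among all genes that fell the shares of the 2 motifs were 3.61% and 1.27%, and among those that rose 2.78% and 0.59%. The E-box was present in 7 of the 40 windows (17.5%), in 11.7% of the windows of all genes that fell, and in 9.47% of all windows. *Nfkbia*, whose window holds the NF-κB sequence, did not pass the test, and *Btg2*, whose window holds the response element, fell by only 0.25. The 2 stretches shown are of genes that fell, with the response element in capitals.
Dusp1, chr17:26508582-26508641, minus strand: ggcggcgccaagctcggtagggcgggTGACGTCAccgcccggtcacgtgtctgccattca
Nfkbid, chr7:30422329-30422388, plus strand: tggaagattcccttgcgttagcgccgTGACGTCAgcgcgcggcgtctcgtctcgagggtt

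Interferon-stimulated genes were also lower at 12 h. Of 36 genes of the type I interferon list 1 rose and 28 fell, 6 of them at least 2-fold, with a median of −0.55, while the same list had a median of −0.01 from 3 to 6 h and −0.10 from 12 to 24 h. *Samd9l*, an antiviral restriction factor, spanned 9.90 to 10.63 at 12 h (median 10.28) and 11.42 to 12.86 at 6 h (median 12.28), and fell by 1.88 (SE 0.11, adjusted p = 2.2e-07). *Ifi27* spanned 10.53 to 10.84 at 12 h (median 10.70) and 11.68 to 12.58 at 6 h (median 12.22), and fell by 1.5. Both sets of arrays were separate for these 2 genes, whereas those of *Isg15*, a ubiquitin-like modifier, touched: 8.35 to 9.61 at 12 h (median 8.96) and 9.54 to 11.26 at 6 h (median 10.31), and fell by 1.29. *Irf7*, the factor that amplifies the interferon response, fell by 1.11, *Usp18*, which removes ISG15 from proteins, by 1.10, *Isg20* by 1.03, *Ifit3* by 0.78, and *Stat2* by 0.51. *Ly6e* was the 1 that rose, by 1.07, and *Mx1* at −0.02 and *Ifit2* at −0.01 did not pass. Of the 29 IFN-γ-induced GTPases and MHC class I genes 0 rose and 21 fell (median −0.42), among them *H2-K1* by 0.85, *H2-T23* by 0.86, the GTPase *Tgtp1* by 0.79, the regulator of MHC class I *Nlrc5* by 0.70, and *Irf1* by 0.64.

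**Figure D3:**
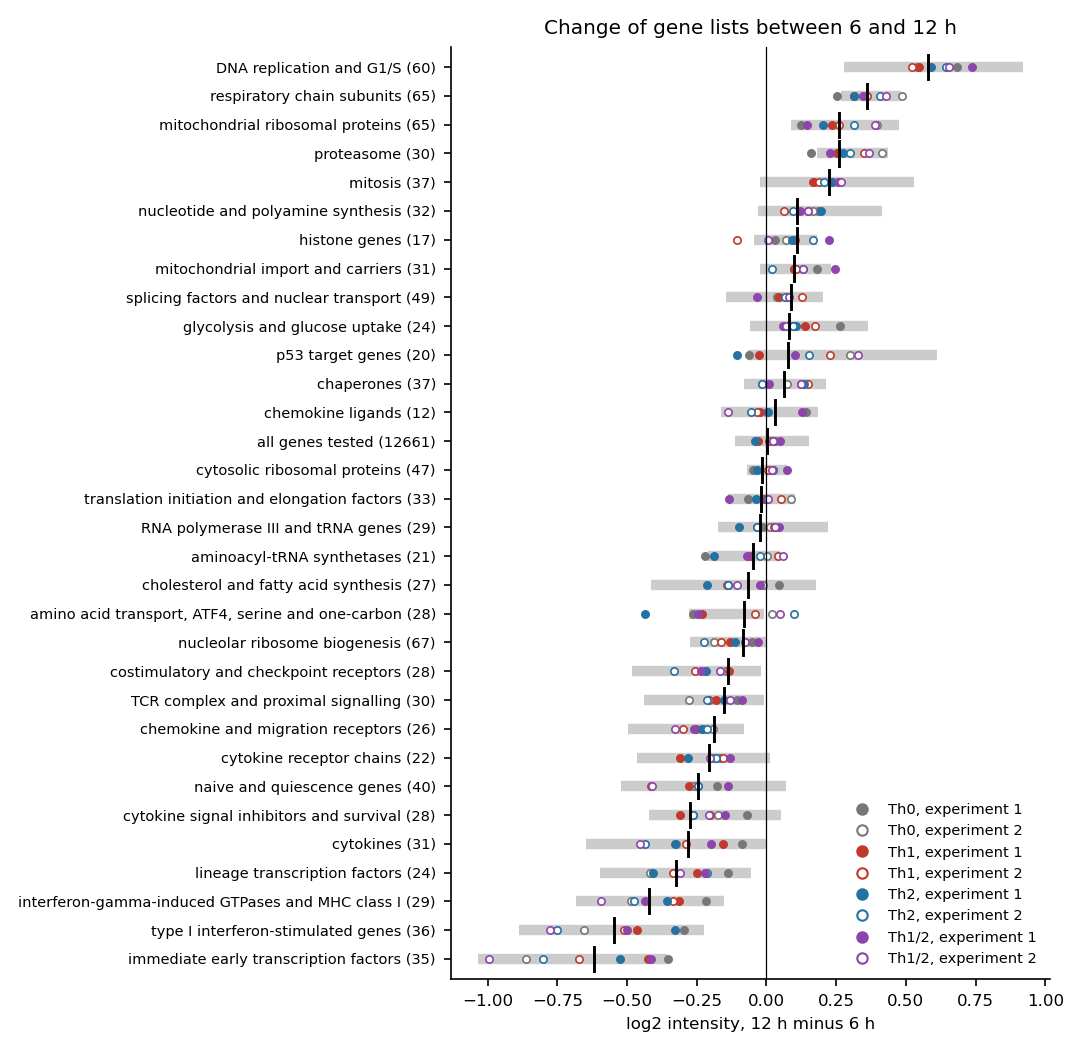
Median change between 6 and 12 h (12 h minus 6 h, log2 intensity) of 31 gene lists and of all genes tested, with the number of genes tested in parentheses. Points are the medians of single pairs, the black bar is the median of the fitted changes, and the grey band spans the middle of the list from its lower to its upper quartile. The replication list lies highest at 0.58 and the immediate early list lowest at −0.62.

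Genes of naive and quiescent T cells continued to fall, with 7 higher and 21 lower of 40. Their median was −0.91 from 3 to 6 h, −0.25 over the present step, and −0.26 from 12 to 24 h. *Txnip*, which restrains glucose uptake, spanned 10.62 to 11.26 at 12 h (median 10.97) and 11.80 to 12.95 at 6 h (median 12.48). It fell by 1.57, having stood at a mean of 15.02 in naive cells. *Tsc22d3*, which encodes the glucocorticoid-induced leucine zipper protein, fell by 1.29, the survival GTPase genes *Gimap5* and *Gimap6* by 1.03 and 1.05, and *Klf2*, which keeps naive cells circulating, by 0.50. Against this direction, *Ccr7*, the receptor that guides cells into lymph nodes, spanned 11.32 to 12.48 at 12 h (median 12.14) and 10.78 to 11.67 at 6 h (median 11.28) and rose by 0.80, before a change of −1.41 from 12 to 24 h. *Evl*, an actin regulator, spanned 11.12 to 12.46 at 12 h (median 11.67) and 10.37 to 10.69 at 6 h (median 10.51) and rose by 1.20. Among 26 chemokine and migration receptors 1 rose and 12 fell, with *Cxcr4* lower by 1.12 and *Cxcr3* by 0.84.

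Cytokine genes were lower at 12 h in most cases that passed. Of 31 tested 1 rose, *Tnfsf4*, and 18 fell, with a median of −0.28. *Tnf* spanned 11.34 to 12.31 at 12 h (median 11.65) and 12.13 to 13.41 at 6 h (median 12.79), and fell by 1.10 (SE 0.18, adjusted p = 0.000322). *Ltb*, lymphotoxin beta, spanned 11.30 to 12.62 at 12 h (median 12.38) and 13.21 to 13.67 at 6 h (median 13.40), and fell by 1.14 (SE 0.11). The 2 times overlapped for *Tnf* and not for *Ltb*. *Il4* spanned 8.42 to 9.82 at 12 h (median 9.05) and 8.56 to 10.85 at 6 h (median 9.92), and fell by 0.81 (SE 0.14, adjusted p = 0.000444). *Ifng* spanned 9.09 to 11.53 at 12 h (median 10.07) and 8.99 to 12.17 at 6 h (median 10.68), and fell by 0.33 (SE 0.10, adjusted p = 0.0238). The changes of *Ifng* were 0.04 in Th0, −0.14 in Th1, −0.44 in Th2, and −0.78 in Th1/2 cells, and both *Ifng* and *Il4* lose their call when the pairing is dropped (adjusted p = 0.508 and 0.156). *Cd40lg* fell by 0.77, *Tgfb1* by 0.82, *Lif* by 0.72, *Lta* by 0.65, *Csf2* by 0.64, and *Il21* by 0.56, whereas *Il3* at 0.18 did not pass. Of 12 chemokine ligands 3 rose and 3 fell, shares near those of all genes. *Ccl1*, *Ccl3*, and *Ccl4* were higher by 0.67, 0.51, and 0.48, *Ccl4* with −0.02 in experiment 2, while *Xcl1* fell by 0.58, *Cxcl10* fell by 0.50, and *Cxcl9* fell by 0.36.

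*Il2* went in opposite directions in the 2 experiments. At 12 h it read 14.75, 14.86, 14.53, and 14.70 in Th0, Th1, Th2, and Th1/2 cells of experiment 1 and 14.70, 14.77, 14.58, and 14.48 in those of experiment 2. At 6 h it read 14.03, 14.27, 13.79, and 14.07 in experiment 1 and 15.59, 15.32, 14.99, and 14.89 in experiment 2. At 12 h the arrays of both experiments lay together, between 14.48 and 14.86, and at 6 h every array of experiment 2 lay above every array of experiment 1. Over all pairs the change was 0.05 (adjusted p = 0.861), and the difference between experiments was 1.24 (adjusted p = 0.00213).

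**Figure D4:**
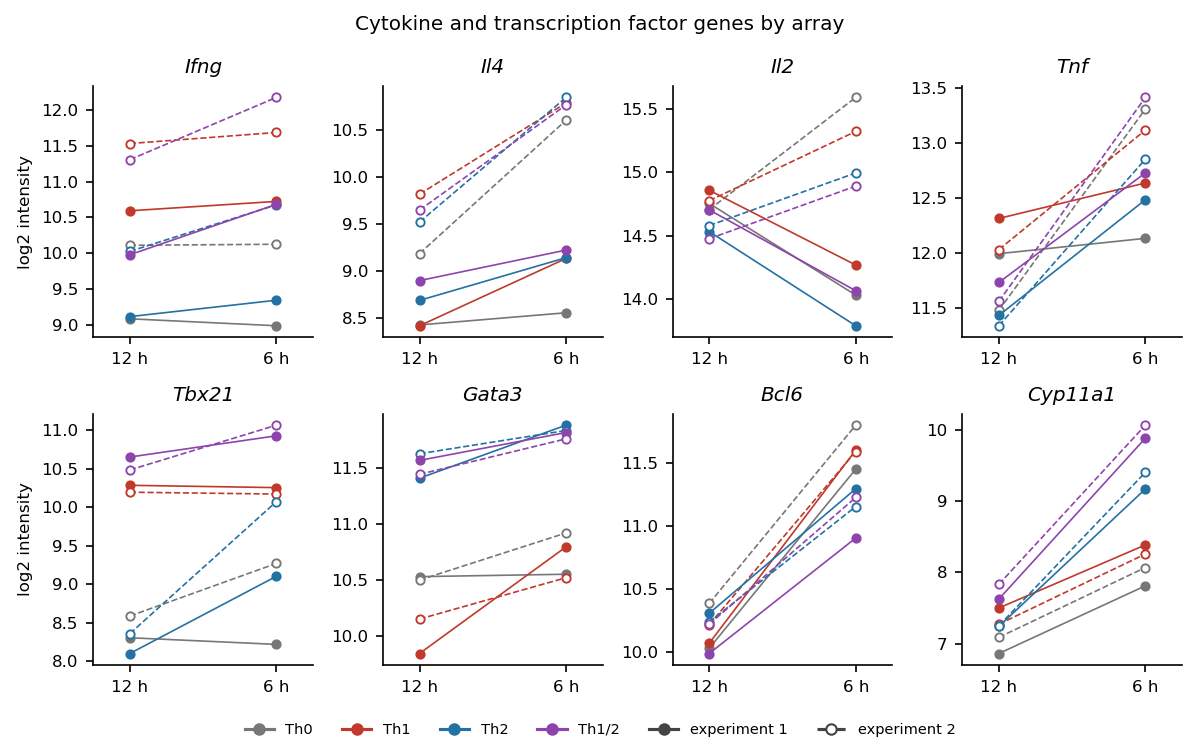
Log2 intensity at 12 h (left of each panel) and 6 h (right) of 8 genes, with a line for each of the 8 pairs, cultures in colour, and experiment 2 dashed. The lines of *Il2* cross between experiments, and those of *Cyp11a1* are steepest in Th2 and Th1/2 cells.

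Cytokine receptor chains had 2 higher and 11 lower of 22. *Il7r*, the receptor for the survival cytokine IL-7, spanned 8.64 to 9.75 at 12 h (median 9.21) and 9.89 to 11.45 at 6 h (median 10.76), against means of 13.73 in naive cells and 12.96 at 3 h. It fell by 1.58 (SE 0.21, adjusted p = 8.46e-05). The changes were −2.17 in Th0, −2.22 in Th1, −1.10 in Th2, and −0.81 in Th1/2 cells, and the contrast of cultures with and without IL-4, 1.24, did not pass (adjusted p = 0.34). *Il18r1* fell by 1.26, and the IFN-γ receptor chains *Ifngr1* and *Ifngr2* fell by 0.99 and 0.85. *Il4ra* fell by 0.47, while *Il2ra* at 0.01 and *Il12rb2* at 0.00 did not pass. Among 28 inhibitors of cytokine signals and survival genes 4 rose and 14 fell, with *Socs3* at −0.99, *Bcl2* at −0.69, and *Pim2* at 0.92.

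Among 24 lineage transcription factors 3 rose and 13 fell (median −0.32). *Bcl6*, the follicular helper factor, spanned 9.98 to 10.38 at 12 h (median 10.22) and 10.90 to 11.80 at 6 h (median 11.37), and fell by 1.20 (SE 0.08, adjusted p = 4.68e-07). *Zbtb32*, a repressor of cytokine genes, spanned 10.01 to 10.94 at 12 h (median 10.40) and 8.52 to 9.66 at 6 h (median 9.28), a rise of 1.29 (SE 0.08). The 12 h and 6 h arrays of both genes were separate. *Tox* fell by 1.03, *Rora* by 0.91, *Id2* by 0.66, and *Foxp3* by 0.62. *Gata3*, the Th2 factor, fell by 0.38 (adjusted p = 0.00321) and *Tbx21*, which encodes the Th1 factor T-bet, by 0.51 (adjusted p = 0.0324). The changes of *Tbx21* were −0.30 in Th0, 0.03 in Th1, −1.36 in Th2, and −0.43 in Th1/2 cells. In Th2 cells *Tbx21* read 8.10 and 8.36 at 12 h, against 9.10 and 10.07 at 6 h. The contrast of cultures with IL-4 and without it, −0.76, did not pass (adjusted p = 0.72). *Stat4* at 0.02 and *Batf* at −0.12 did not pass either.

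The step was tested for differences between the cultures. Across all 4 cultures, 0 genes passed the limma F-test with Benjamini-Hochberg adjustment (smallest adjusted p 0.134, with 400 genes at an unadjusted p below 0.05). The contrast of Th1 and Th1/2 with Th0 and Th2 cells sets added IL-12 against anti-IL-12 together with anti-IFN-γ. It gave 0 genes (159 at an unadjusted p below 0.05). The contrast of Th2 and Th1/2 with Th0 and Th1 cells sets added IL-4 against anti-IL-4. It gave 1 gene (0.00790%, 645 at an unadjusted p below 0.05). In neither contrast can the added cytokine be told apart from the blocking antibodies. With 2 pairs per culture such differences are measured with little precision, and these counts do not show that the cultures changed alike.

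The 1 gene was *Cyp11a1*, the side-chain cleavage enzyme that starts steroid synthesis from cholesterol. At 12 h it read 6.86 and 7.09 in Th0, 7.50 and 7.27 in Th1, 7.24 and 7.25 in Th2, and 7.63 and 7.83 in Th1/2 cells. At 6 h it read 7.81 and 8.07 in Th0, 8.39 and 8.26 in Th1, 9.17 and 9.41 in Th2, and 9.89 and 10.07 in Th1/2 cells. Levels at 6 h were thus highest with IL-4, and at 12 h the cultures lay closer together. The changes were −0.97, −0.94, −2.04, and −2.25 in these cultures, and the difference with minus without IL-4 was −1.20 (SE 0.10, adjusted p = 0.0152). Next by p were *Emp1*, a tetraspan membrane protein, and *Xcl1*, a chemokine, with differences of −1.08 and 1.08 (adjusted p = 0.0674 each). *Emp1* read 8.24, 8.15, 7.75, and 7.78 in Th2 and Th1/2 cells at 12 h and between 9.0 and 9.32 in Th0 and Th1 cells, while at 6 h all 8 arrays lay between 8.58 and 8.98. *Xcl1* had changes of −1.32 in Th0 and −0.92 in Th1 cells, and of −0.12 in Th2 and 0.04 in Th1/2 cells. The call rests on all Th0, Th1, and Th2 pairs: without any 1 of these 6 pairs 0 genes passed the IL-4 contrast. Without the pair that stood apart 4 genes passed, namely *Cyp11a1*, *Emp1*, *Xcl1*, and *Gbp11*, and without the other Th1/2 pair 75 passed, with the pair that stood apart then the 1 pair of that culture.

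The step was also compared between the 2 experiments. The step of experiment 1 minus that of experiment 2 passed with a difference of 2-fold or more for 14 genes (0.111%), and for 145 without the fold criterion. Leaving out 1 pair moved the 14 to 2 genes without Th1 replicate 2, to 7 without Th0 replicate 1, Th0 replicate 2, Th2 replicate 2, or Th1/2 replicate 2, and to 27 without Th1 replicate 1. Genes of the p53 response were among them. *Phlda3*, which encodes an AKT inhibitor, spanned 8.45 to 9.65 at 12 h (median 9.22) and 7.27 to 8.36 at 6 h (median 7.63), and rose by 0.73 in experiment 1 and 2.20 in experiment 2, a difference of −1.46 (adjusted p = 0.0112). *Gtse1*, a negative regulator of p53, rose by 0.99 and 1.99 (difference −1.0, adjusted p = 0.0343), and *Eomes* by 1.14 and 2.44 (difference −1.30, adjusted p = 0.00213). Over both experiments 7 of 20 p53 target genes rose and 3 fell, with *Zmat3* at 1.06, *Ccng1* at 0.71, *Cdkn1a* at 0.58, and *Mdm2*, which did not pass, at −0.01.

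Genes of the amino acid response, which the factor ATF4 controls, formed another set. *Chac1*, which degrades glutathione, had a step of −0.83 in experiment 1 and 0.81 in experiment 2 (difference −1.64, adjusted p = 0.0112). *Trib3*, a pseudokinase induced by ATF4, had steps of −0.89 and 0.34, the translation inhibitor *Eif4ebp1* of −0.32 and 1.03, the cationic amino acid transporter *Slc7a3* of −1.03 and 0.13, and the glycine transporter *Slc6a9* of −1.05 and 0.10. In the whole list of 28 genes, 7 differed between the experiments at an adjusted p below 0.05, against 145 of all 12661, and the median change was −0.24 in experiment 1 and 0.02 in experiment 2. In the opposite direction, the motor protein *Myo6* had steps of 0.69 and −0.49 and the chemokine *Ccl4* of 0.98 and −0.02. Within each experiment the immediate early list stayed negative (medians −0.45 in experiment 1 and −0.80 in experiment 2), as did the type I interferon list (−0.41 and −0.66), and the replication list stayed positive (0.63 and 0.58). The size of the step still differed between the experiments, by the same adjusted p, for 5 of 35 immediate early and 5 of 36 type I interferon genes. It differed for 6 of 31 cytokine genes and for 1 of 60 replication genes.

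**Figure D5:**
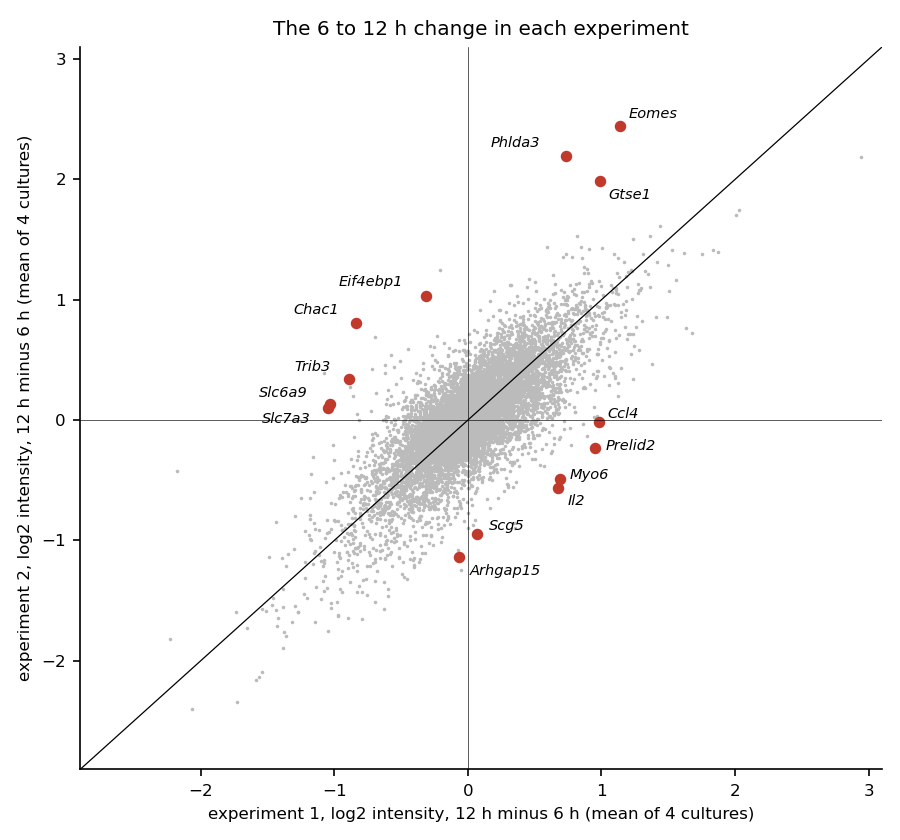
Change between 6 and 12 h (12 h minus 6 h, log2 intensity, mean of 4 cultures) of 12661 genes in experiment 1 (horizontal) and experiment 2 (vertical). The line marks equal changes, and red points are the 14 genes whose step differed by 2-fold or more. *Chac1* lies at −0.83 and 0.81 in experiments 1 and 2, and *Eomes*, *Phlda3*, and *Gtse1* lie above the line on the side of experiment 2.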

How the data were processed

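The authors deposited normalized intensities of bead arrays. Their methods describe background correction, quantile normalization, and log2 transformation, but the deposited values are linear (55.8 to 69892), so log2 was taken here. The software of that step was not given in the sources used here. Symbols came from the platform annotation, of 45135 probes 34773 had 1 symbol, 18 several, and 10344 none. A gene was kept if its mean passed the median of all values (6.77) in at least 1 of the 8 conditions, and the brightest of its probes stood for it, which gave 12661 genes (5117 with several probes). limma 3.58.1 in R 4.3.3 was fitted with the pair of culture and experiment as a block, and differences between cultures, experiments, and neighbouring steps were contrasts of the same kind. A p below 0.05 after Benjamini-Hochberg adjustment passed. The scripts were tested on simulated data. Intensities have no read depth, and their precision is limited by the number of arrays, with a median residual SD of 0.124. Nothing says that the 2 experiments used separate animals, so p-values measure the spread between these arrays.

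Pairing follows the experiment number, which the methods describe as 2 independent experiments. Deviations of same-numbered arrays from their group means correlated at 0.137 in Th0, 0.461 in Th1, 0.440 in Th2, and 0.0167 in Th1/2 cells, against −0.211 to 0.471 between different cultures, so this check gives no sign of pairing by culture. Genes were named as the 15 largest changes each way with 1 sign in 8 pairs, up to 4 members past the threshold and up to 3 defining members of each list, 6 genes of lineage and growth (*Tbx21*, *Gata3*, *Ifng*, *Il4*, *Il2*, *Myc*), the 5 largest of each contrast and direction, and the 6 with the smallest F-test p. Other genes in the text were named after their values were seen. The members and lists were chosen with earlier results of these data known. Promoter windows and their sequences are from RefSeq (GRCm38.p6, 10227 of 12661 genes matched). Alternatives changed the background correction, normalization, probe rule, filter, variance model, fold threshold, block, and arrays used.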

Additional observations from a re-analysis of the deposited data

Results flagged for a closer look

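In 14 genes the change between 6 and 12 h differed between the 2 experiments by 2-fold or more (limma, adjusted p below 0.05). Experiment 1 minus experiment 2 was −1.64 for *Chac1*, −1.46 for *Phlda3*, −1.34 for *Eif4ebp1*, −1.30 for *Eomes*, −1.24 for *Trib3*, −1.16 for *Slc7a3*, −1.15 for *Slc6a9*, and −1.0 for *Gtse1*. It was 1.24 for *Il2*, 1.18 for *Prelid2*, 1.18 for *Myo6*, 1.07 for *Arhgap15*, 1.02 for *Scg5*, and 1.00 for *Ccl4*. *Arhgap15*, a GTPase-activating protein, had a step of −0.07 in experiment 1 and −1.14 in experiment 2.

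In 1 gene, *Cyp11a1*, the change differed between cultures with and without IL-4, by −1.20. The call was lost without any 1 of the 6 Th0, Th1, and Th2 pairs, and the contrast gave 75 genes without Th1/2 replicate 2.

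Of 202 sets of 8 paired changes examined for a pair far from the other 7, 16 were picked out, where chance alone would give about 10.1, and 10 of the 16 were the Th1/2 pair of experiment 1. In that pair the change was −3.75 for *Hnrnpa2b1*, −2.05 for *Cd28*, −1.67 for *Nop56*, −1.62 for *Eprs*, −1.19 for *Hk1*, −1.03 for *Mcm3*, −0.16 for *Psma4*, 0.49 for *Pfas*, 1.39 for *H2ac22*, and 1.58 for *Hspa4*. The medians of all 8 pairs were 0.31 for *Hnrnpa2b1*, 0.86 for *Cd28*, and 1.34 for *Mcm3*. The remaining 6 were *Birc5* in Th1 cells of experiment 2 (−0.66), *Hspa8* in Th2 cells of experiment 2 (−0.092), *Ndufa3* in Th0 cells of experiment 1 (−0.12), *Sema7a* in Th1 cells of experiment 1 (−0.95), *Timm8a1* in Th0 cells of experiment 1 (0.66), and *Timm8b* in Th0 cells of experiment 2 (−0.014).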

How the results depend on the processing

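The 84 rises and 99 falls became 526 and 450 at 1.5-fold and 2771 and 2274 with no fold criterion. Experiment 1 alone gave 106 rises and 81 falls, and experiment 2 alone 100 and 162, so the share of rises among calls, 45.9% over both, was 56.7% and 38.2%. Without single pairs the counts ran from 72 to 91 rises and from 93 to 115 falls. Without the replicate block, which leaves the size of each change as it is, they were again 84 and 99. With the mean of the probes of a gene they were lower, at 56 and 67. Of the called genes 84 had several probes, and in 73 of these all other probes had the same sign. The F-test across cultures gave 0 to 339 genes and the IL-12 contrast 0 to 37, with the high counts without Th1/2 replicate 2, which leaves the pair that stood apart as the 1 pair of that culture. The IL-4 contrast, 1 gene, gave 0 to 75 without single pairs, with 75 in that same setting, 0 without any 1 of the 6 Th0, Th1, and Th2 pairs, 4 with variance trend and robust fitting, 3 without the filter on dim probes, and 2 with no replicate block. The contrast of experiments, 14 genes, gave 2 to 27, with 2 without Th1 replicate 2 and 27 without Th1 replicate 1. Signs reversed for *Ccl4* (−0.019), *Chac1* (0.81), *Eprs* (0.21), *Hnrnpa2b1* (0.43), *Il2* (−0.56), *Myo6* (−0.49), *Prelid2* (−0.23), *Trib3* (0.34), and *Trp53inp1* (0.17) in experiment 2 alone, for *Eprs* (0.20, range without single pairs −0.083 to 0.20) and *Hnrnpa2b1* (0.37, range −0.27 to 0.37) without Th1/2 replicate 1, and for *Polr3c* (0.21) with the mean of the probes. The cause was not tested. Reversals were counted among the 171 named genes, and only where the gene passed in the main fit or in that setting. Other sign changes between settings are left out. Of the 120 named genes that passed, 11 lost their call in at least 1 setting without a pair. *Ifng* lost it also with no replicate block (adjusted p = 0.508) and *Il4* likewise (0.156). Other settings cost more calls. With the sign kept, 31 named genes lost the call in experiment 1 alone and 5 in experiment 2 alone. A fit to all 74 arrays lost 16, the fit without the replicate block 9, and the mean of the probes 8. Dim genes near 6.77 are limited by signal over background, so their changes may be understated.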

Other observations

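Several genes known from the primary cilium were among the 84 that rose at least 2-fold. They were noticed after the values were seen, belong to no list used here, and were not tested as a group. *Tctex1d2*, a light chain of the dynein that carries cargo back along the cilium, spanned 9.28 to 9.76 at 12 h (median 9.42) and 7.95 to 8.22 at 6 h (median 8.07), and rose by 1.39 (SE 0.07, limma adjusted p = 8.81e-08). *Wdr60*, an intermediate chain of the same motor, rose by 1.10, *B9d1* and *Tmem237*, of the transition zone at the base of the cilium, by 1.18 and 1.01, *Bbs5*, of the BBSome coat, by 1.02, the small GTPase *Arl3* by 1.21, and the centrosomal *Cep19* by 1.22. For each of these 7 genes the 12 h arrays did not overlap the 6 h arrays and all 8 pairs rose. The same held for most of the 84 from which they were picked, with 77 not overlapping and 82 higher in all 8 pairs. Genes of the cilium that did not rise were not counted. For *Arl3* and *Cep19* the step exceeded the 12 to 24 h step by 1.30 and 1.14.

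*Crabp2*, which carries retinoic acid to the nucleus, rose by 1.47. Its 12 h arrays read higher in Th2 and Th1/2 cells than in Th0 and Th1 cells, a difference in level that was not tested. At 12 h it read 8.74 and 8.47 in Th0, 8.95 and 8.56 in Th1, 10.18 and 10.34 in Th2, and 10.66 and 10.44 in Th1/2 cells, while its change did not differ between the cultures beyond the threshold.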
